A study of Mus musculus with 47 samples.

Results

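Muscle stem cells of mice fed a high-fat diet were compared with those of mice fed a control diet at ZT20, a single time of day. All samples titled with that time were taken, which gave 4 high-fat and 4 control mice, 8 of the 47 mice measured over 6 times. Every mouse in both groups was a wild type female of the strain C57B6/J. Feeding on either diet was free, began at 8 weeks of age and went on for 7 weeks, so that the mice were 15 weeks old at sampling. ZT counts the hours from lights on, and ZT20 falls in the dark phase, in which mice are usually awake and feeding. The mice of both diets at ZT20 were killed on the same day, so the comparison lies within a collection day. A comparison of ZT20 with another time crosses days, and time and day cannot be told apart there. The sources used here do not give the composition of the diets or the way the cells were isolated. RNA of skeletal muscle stem cells was measured on expression arrays, 1 array per mouse, and values are log2 expression levels, on which a difference of 1 is a doubling.

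Muscle stem cells, or satellite cells, lie between the muscle fibre and its basement membrane and rest until injury or growth calls on them, when they divide, commit and fuse into fibres. Glucocorticoids, the adrenal steroid hormones, rise in mice towards the active phase and act through a receptor that switches on a set of genes shared by many tissues, among them Tsc22d3, Zbtb16, Ddit4 and Per1. The heat shock response is a second such set, of chaperones that help proteins fold, and it follows body temperature and stress on proteins.

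Markers of satellite cells were high in all 8 mice. All 18 marker genes on the array were above the level used to leave out dim genes (a mean of 5.80 over all arrays), and their mean lay at 9.87 to 10.04 on the control diet and at 10.04 to 10.16 on the high-fat diet. Pax7, the transcription factor that defines these cells, measured 10.78, 10.87, 10.71 and 10.73 in control replicates 1 to 4 and 11.05, 10.80, 11.11 and 11.09 in high-fat replicates 1 to 4. The high-fat minus control difference of 0.24 ± 0.08 (SE, n = 4 against 4 mice, as for all differences at ZT20) did not pass the test (limma, adjusted p = 0.118), and the groups overlapped.

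Control replicate 2 stood apart in transcripts of the blood vessel lining. Pecam1, an adhesion molecule of endothelial cells, measured 9.11 there and 6.38 to 6.80 in the other 7 mice. Cdh5, the cadherin of endothelial junctions, measured 9.57 there and 6.33 to 7.24 in the others. Of 25 endothelial genes on the array, 23 were highest in this mouse among the 8, and 19 were highest among all 47 mice. Their 11 tested members had a mean of 9.26 in this mouse, against 7.39 to 7.66 in the other 7 mice and 7.24 to 7.85 in the 39 mice of other times. The 5 tested immune genes also had their highest mean of all arrays there, 8.00 against 6.84 to 7.15 in the other 7. The mean of the haemoglobin genes Hba-a1 and Hba-a2 was highest there too. It was 10.97, against 9.11 to 10.17 in the other 7 and up to 10.75 at other times. Between diets Hba-a1 differed by -1.30 and Hba-a2 by 0.07 (limma, adjusted p = 0.344 and 0.655). Markers of fibro-adipogenic cells and fibroblasts had a mean of 9.53 in control replicate 2, against 8.75 to 8.98 in the other controls and 8.64 to 9.23 in high-fat mice. Genes of the extracellular matrix had 9.56, against 9.12 to 9.28 and 9.08 to 9.32. Both means lay inside the ranges of the 39 mice of other times, 8.39 to 9.54 and 8.96 to 9.57. The satellite cell markers of control replicate 2 had a mean of 9.98, inside the range of the other controls. No endothelial gene passed the test between diets in limma (4 of 11 at an unadjusted p under 0.05), and the median difference of the 11 was -0.44 with this mouse and -0.09 without it. Results below are given with and without control replicate 2 where it changes them.

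**Figure D1:**
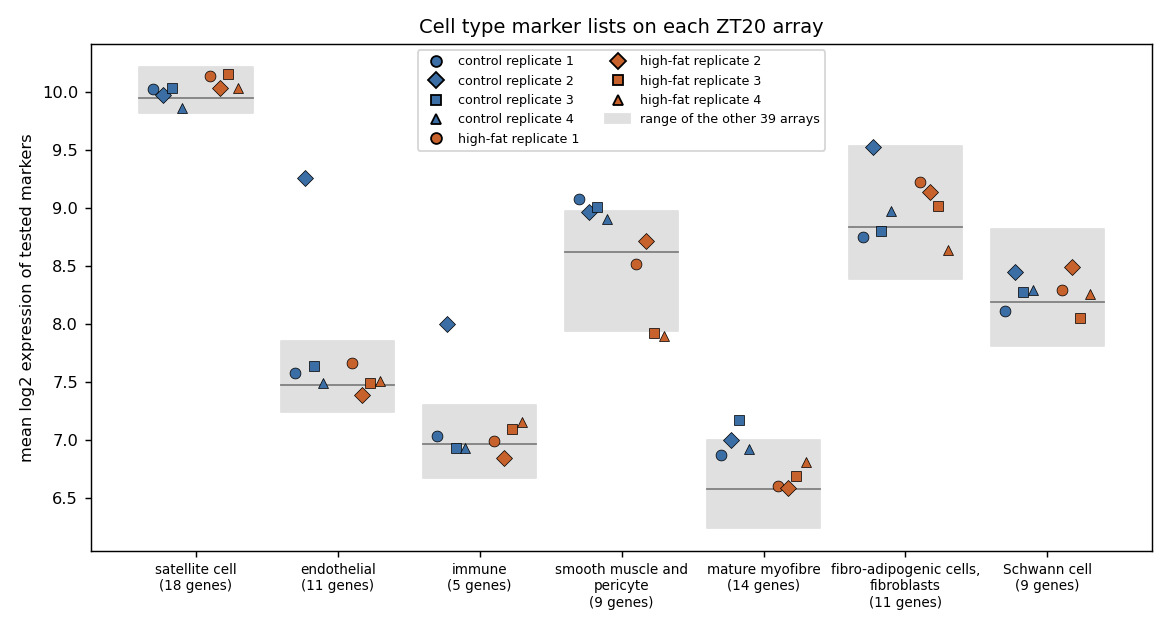
Mean log2 expression of the tested markers of 7 cell types (vertical axis) on each of the 8 ZT20 arrays, with colour for diet and shape for replicate number; grey boxes span the 39 arrays of the other times and the line is their median. Control replicate 2 lies at 9.26 for endothelial and 8.00 for immune markers, above all other arrays, and the smooth muscle and pericyte and the mature myofibre lists do not overlap between diets.

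Between the diets, 84 of 10258 genes (0.819%) differed at ZT20 at an adjusted p under 0.05, with 31 (0.302%) higher in the high-fat mice and 53 (0.517%) lower. The differences were moderate, with a median size of 0.58 on the log2 scale. Of the 84 genes, 41 differed by more than 1.5-fold, 13 upward and 28 downward, and 13 by more than 2-fold. In 75 of the 84 the 4 high-fat mice did not overlap with the 4 control mice. The 84 were called on these same mice, which favours such a separation. Over all genes 2.29% had all high-fat mice higher and 4.04% all lower. The 15 largest decreases included the glucocorticoid-responsive genes Tsc22d3, Zbtb16 and Ddit4 and the pericyte genes Ebf1, Kcnj8 and Pdgfrb, and the increases included 5 chaperones of the heat shock response. The split of 31 higher and 53 lower became 40 and 39 after cyclic loess and 42 and 44 with arrays centred on their median.

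These calls depend on single mice and on the spread shared over all 47 arrays. Without control replicate 2 the counts were 17 higher and 24 lower, and 34 of the 84 calls were kept; they were 18 and 25 without control replicate 1, 18 and 28 without control replicate 3, and 17 and 25 without high-fat replicate 3. A fit to the 8 arrays alone called 4 genes, Tsc22d3, Nppc, Tmem255a and Acta1. Of the 30 genes with the largest called differences, 9 kept their call without any 1 of the 8 mice, namely Gjb2, Ilkap, H2-Q4, Ebf1, Zbtb16, Tsc22d3, Ddit4, Arrdc3 and Arhgap18.

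Several genes that glucocorticoids are known to induce were lower on the high-fat diet at ZT20. Of 21 tested members of this list 4 fell and none rose, 17 had a negative difference, and the 4 high-fat mice were all lower than the controls for 8. An unadjusted p under 0.05 was reached by 13 of the 21. Over all 10258 genes, 0.517% fell, 5578 had a negative difference, 4.04% had all high-fat mice lower and 1399 reached an unadjusted p under 0.05. The median difference was -0.15, beside -0.02 over all genes tested. The mean of the 21 genes lay at 9.54 to 9.69 in the controls and at 9.33 to 9.36 in the high-fat mice, with no overlap. This mean includes the 4 that fell, which had the largest differences of the list. The count of members that fell was 7 without control replicate 4, and 3 without control replicate 1, 2 or 3 or high-fat replicate 3 or 4.

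Tsc22d3, the gene of the anti-inflammatory protein GILZ, had the smallest p of all genes. It measured 8.55, 8.76, 8.37 and 8.42 in the control mice and 7.27, 7.39, 7.26 and 7.29 in the high-fat mice. The high-fat mice lay close together and well below every control. The difference was -1.22 ± 0.18 (adjusted p = 0.000344), a 2.33-fold decrease, and it passed without control replicate 2 (adjusted p = 0.00307). Its probe sets all pointed down, at -1.22, -1.36 and -0.34.

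Zbtb16, a zinc finger transcription factor that is a sensitive marker of glucocorticoid action, measured 9.31, 9.85, 9.91 and 9.09 in controls and 8.14, 8.39, 8.12 and 7.63 in high-fat mice. It fell by 1.47 ± 0.26 (adjusted p = 0.00278), a 2.77-fold decrease, and a further probe set gave -1.49. Ddit4, an inhibitor of the growth kinase mTORC1, measured 8.64, 8.82, 8.43 and 8.16 in controls and 7.25, 6.96, 7.77 and 7.44 in high-fat mice. For both genes the diets did not overlap. The decrease of Ddit4 was 2.23-fold, with a difference of -1.16 ± 0.23 (adjusted p = 0.00544).

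Per1 is both a clock gene and a direct glucocorticoid target. It measured 9.62, 9.39, 9.66 and 9.42 in controls and 9.20, 9.27, 8.62 and 8.83 in high-fat mice. The groups did not overlap, and the difference of -0.54 ± 0.14 passed (adjusted p = 0.0429), but not when control replicate 1 (adjusted p = 0.119), 2 (0.0615) or 3 (0.128) or high-fat replicate 3 (0.172) or 4 (0.111) was left out.

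Other members of the list did not pass. Sgk1, a kinase of ion transport and cell survival, differed by -0.21 ± 0.06 (adjusted p = 0.0916), and Klf9, a repressor induced by the hormone, by -0.11 ± 0.03 (adjusted p = 0.0808). Other probe sets of Klf9 gave -0.42, -0.34, -0.22 and 0.07. Fkbp5, a chaperone of the receptor, differed by -0.39 ± 0.18 (adjusted p = 0.321) and Dusp1, a phosphatase of stress kinases, by 0.01 (adjusted p = 0.957). Angptl4, also in the list of fatty acid oxidation, had the largest positive difference (0.40, adjusted p = 0.352). Foxo3, a transcription factor of atrophy and quiescence, differed by -0.26 ± 0.07 (adjusted p = 0.0518), and its other probe sets gave -0.48 and -0.42.

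**Figure D2:**
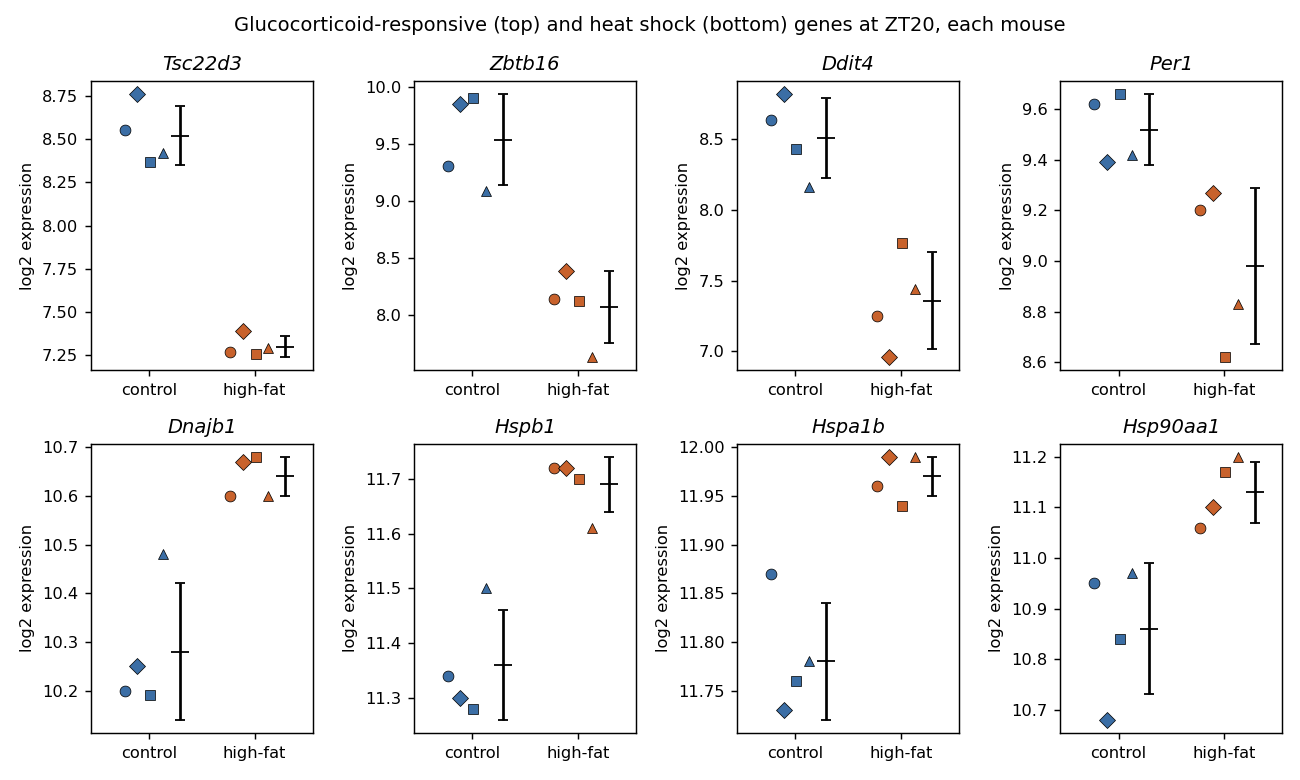
Log2 expression (vertical axes, which do not start at 0) of 4 glucocorticoid-responsive genes (top) and 4 heat shock genes (bottom) in each of the 4 control and 4 high-fat mice at ZT20; symbol shapes are replicate numbers 1 to 4 (circle, diamond, square, triangle), and the bars beside them are mean and SD. The high-fat mice are all below the controls in the top row and all above them in the bottom row.

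The same genes moved the other way 4 h earlier. At ZT16, where 3 high-fat mice were measured against 4 controls, Tsc22d3 was higher on the high-fat diet by 1.07 ± 0.19 (adjusted p = 0.000199), Zbtb16 by 1.57 ± 0.28 (adjusted p = 0.000223), Ddit4 by 1.21 ± 0.25 (adjusted p = 0.00107) and Per1 by 0.58 ± 0.15 (adjusted p = 0.00658). In control mice the level of Tsc22d3 was 8.51 at ZT16 and 8.52 at ZT20, whereas in high-fat mice it was 9.59 at ZT16 and 7.30 at ZT20. The controls thus held a level that the high-fat mice were above at the earlier time and below at the later. These 2 times were collected on different days.

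The difference of Tsc22d3 at ZT20 against the mean of the diet differences at the other 5 times was -1.33 ± 0.20 (adjusted p = 0.000111), and without ZT16 it was -1.08 (adjusted p = 0.0113). For Zbtb16 these values were -1.90 ± 0.29 (adjusted p = 0.000144) and -1.61 (adjusted p = 0.0113). For Ddit4 the test against the other times passed with ZT16 (-1.07 ± 0.25, adjusted p = 0.0278) and not without it (-0.74, adjusted p = 0.212), and so it was for Per1 (-0.68 ± 0.15, adjusted p = 0.0154, and -0.57, adjusted p = 0.0539).

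Over all genes, the ZT20 diet difference differed from that of the other times for 103 genes (1.00%), 39 upward (0.380%) and 64 downward (0.624%), and for 37 genes (13 and 24) when ZT16 was left out. The counts upward and downward were 10 and 29 without control replicate 2, 7 and 30 without control replicate 3, 62 and 85 without control replicate 4, and 17 and 37, 22 and 35, and 16 and 38 without high-fat replicates 2, 3 and 4. Of the 84 genes called at ZT20, 41 were among the 103, and 22 passed this test without ZT16. At ZT16 itself 11 of the 84 genes also passed in the same direction and 16 in the opposite one. That time called far more genes than ZT20, with 629 higher and 731 lower of all 10258. At ZT0, ZT4, ZT8 and ZT12 there were 6, 2, 0 and 1 of the 84 in the same direction and 0, 0, 1 and 0 in the opposite one. Over all genes these times called 136, 21, 78 and 48 higher and 229, 11, 105 and 40 lower. None of the other 5 times called 50 of the 84.

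Among genes lower at ZT20 and higher at ZT16 were several that act in metabolic control and stress. Arrdc3, an arrestin-like regulator of receptor traffic, measured 8.49, 8.23, 8.62 and 8.06 in controls and 7.25, 7.04, 7.12 and 7.94 in high-fat mice at ZT20, and every high-fat mouse was below every control. Its difference was -1.01 ± 0.19 (adjusted p = 0.00355) at ZT20 and 0.95 ± 0.21 (adjusted p = 0.00187) at ZT16. Trp53inp1, a p53-induced gene of autophagy and cell death, measured 8.39, 8.58, 8.92 and 8.33 in controls and 7.74, 7.87, 8.04 and 7.65 in high-fat mice. The diets did not overlap, and its difference was -0.73 ± 0.13 (adjusted p = 0.00285) at ZT20 and 1.61 ± 0.15 (adjusted p = 6.61e-10) at ZT16.

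Slc10a6, a transporter of sulphated steroids, was the gene with the smallest p against the other times, at -1.33 ± 0.17 (adjusted p = 8.9e-06). It measured 10.29, 10.46, 10.90 and 10.38 in controls and 9.86, 10.01, 9.57 and 9.32 in high-fat mice at ZT20, again with no overlap. Wee1, the kinase that holds cells before mitosis, fell by 1.01 ± 0.26 (adjusted p = 0.0429) at ZT20 and was higher by 1.13 ± 0.28 at ZT16. Its call at ZT20 was lost without control replicate 1, 2 or 3 or high-fat replicate 3 or 4 (adjusted p = 0.0893 to 0.167). Galnt15, an enzyme that starts sugar chains on proteins, fell by 1.47 ± 0.29 (adjusted p = 0.00544) and was higher by 1.40 ± 0.32 at ZT16, and without control replicate 2 its ZT20 difference did not pass (adjusted p = 0.0533).

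**Figure D3:**
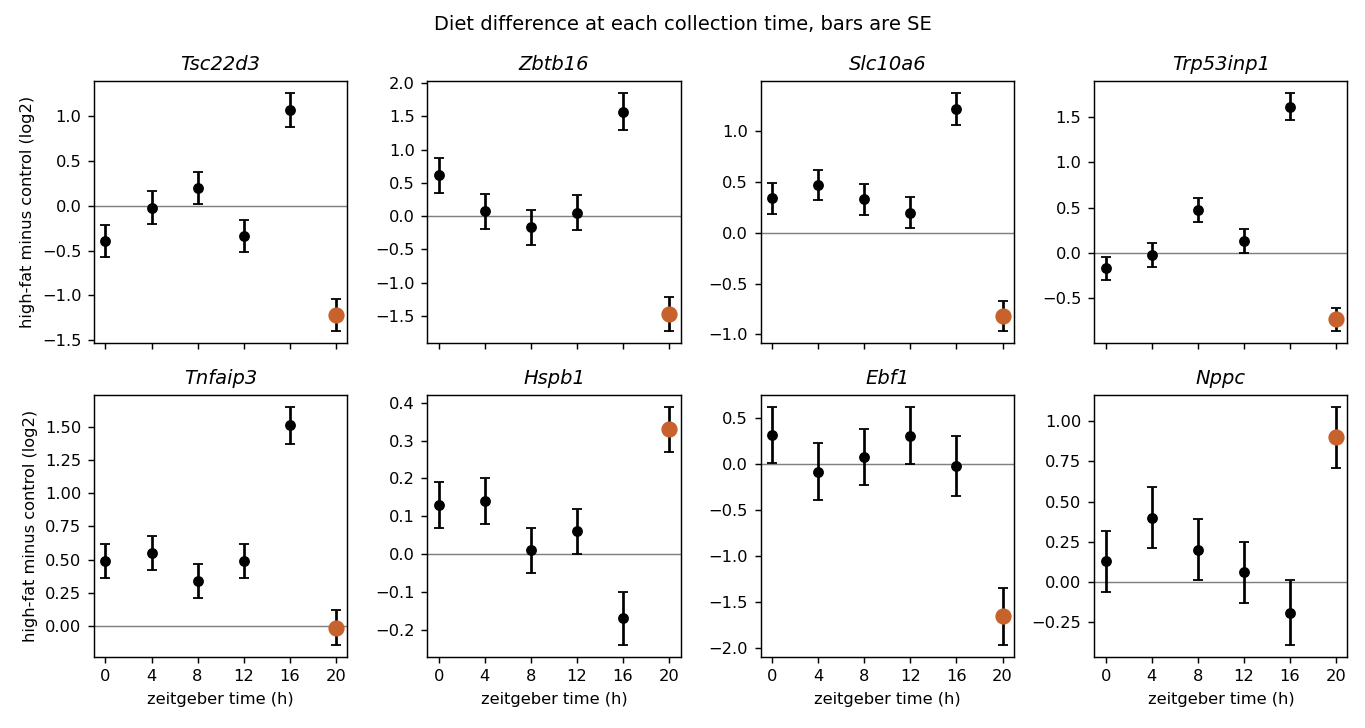
High-fat minus control difference in log2 expression (vertical axes) at the 6 collection times (horizontal axes, in h) for 8 genes, with SE bars and ZT20 in orange; each point compares 4 with 4 mice, or 3 with 4 at ZT16. Tsc22d3, Zbtb16, Slc10a6 and Trp53inp1 lie above 0 at ZT16 and below 0 at ZT20, Ebf1 lies below 0 by 1.66 at ZT20 and within 0.32 of 0 elsewhere.

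The genes that differed most between ZT20 and the other times also included Arhgap18, a scaffold and chromatin proteins. Arhgap18 measured 8.26, 7.89, 8.03 and 7.87 in controls and 7.16, 6.94, 7.05 and 7.29 in high-fat mice, and fell by 0.90 ± 0.15 (adjusted p = 0.0016). Rere, a nuclear receptor coregulator, fell by 0.58 ± 0.10 (adjusted p = 0.0016), Sash1, a scaffold protein, by 0.37 ± 0.08 (adjusted p = 0.00861), and Sgcb, a sarcoglycan of the muscle membrane, by 0.73 ± 0.15 (adjusted p = 0.00544). Other probe sets gave -0.09 for Sash1 and -0.25 and -0.23 for Sgcb. Rybp, a Polycomb protein, rose by 0.29 ± 0.07 (adjusted p = 0.0294) on the probe set used, while its other probe set gave -0.21. The ZT20 call of Sash1 was lost without control replicate 2 (adjusted p = 0.0606), and that of Rybp without control replicate 1, 2 or 3 or high-fat replicate 4 (adjusted p = 0.0553 to 0.129). For all of these genes and for Foxo3, the test against the other times passed with ZT16 and without it (adjusted p = 0.0113 to 0.0327 without it).

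Some pericyte genes were lower on the high-fat diet. Pericytes and smooth muscle cells wrap small vessels, and of 9 tested markers 3 fell and none rose, beside 0.517% lower and 0.302% higher over all genes. The median difference of the 9 was -0.32, beside -0.02 over all genes tested. Ebf1, a transcription factor of pericytes and of fat and B cell precursors, measured 7.57, 8.49, 8.10 and 7.95 in controls and 6.83, 7.02, 6.72 and 4.91 in high-fat mice. High-fat replicate 4 was lowest by far, but the other 3 high-fat mice were below the controls too. The difference was -1.66 ± 0.31 (adjusted p = 0.00285), a 3.15-fold decrease, and its other probe sets gave -0.87 and -0.65.

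Kcnj8, a potassium channel subunit of pericytes, measured 7.75, 8.05, 7.69 and 7.48 in controls and 6.29, 6.88, 5.61 and 6.40 in high-fat mice and fell by 1.45 ± 0.32 (adjusted p = 0.0136). Pdgfrb, the receptor that recruits pericytes, measured 8.18, 8.75, 8.21 and 8.01 in controls and 7.44, 7.77, 7.35 and 7.15 in high-fat mice and fell by 0.86 ± 0.20 (adjusted p = 0.0294). Both were without overlap between diets, as were 4.04% of all genes with the high-fat mice lower. Both were called on these same mice, and 75 of the 84 called genes were without overlap. The call of Kcnj8 was lost without control replicate 2 (adjusted p = 0.0639) or high-fat replicate 3 (adjusted p = 0.0893), and that of Pdgfrb without any 1 mouse other than control replicate 4 and high-fat replicate 2 (adjusted p = 0.0519 to 0.113). Rgs5, a regulator of G protein signals that marks pericytes, measured 11.50, 11.08, 10.85 and 10.45 in controls and 10.02, 10.39, 6.87 and 8.98 in high-fat mice, and this spread left its difference of -1.91 ± 0.57 short of the threshold (adjusted p = 0.099).

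The mean of the 9 genes was 8.91 to 9.08 in controls and 8.52, 8.72, 7.92 and 7.90 in high-fat replicates 1 to 4, against 7.94 to 8.98 in the 39 mice of other times. Controls thus lay around the top of that range, and high-fat replicates 3 and 4 just below its bottom. This mean includes Ebf1, Kcnj8, Pdgfrb and Rgs5, which had the largest differences of the 9. The part of the pericyte and smooth muscle transcripts in the other differences between diets was not tested. In such bulk RNA fewer cells of a type and less RNA per cell cannot be told apart. Without control replicate 2 or without high-fat replicate 3, 1 of the 9 genes passed. The smooth muscle genes Acta2 (-0.32, adjusted p = 0.295) and Myh11 (-0.26, adjusted p = 0.718) did not pass. Mcam (-0.24, adjusted p = 0.583) and Cnn1 (-0.12, adjusted p = 0.818) did not either. Notch3 was the 1 marker with a positive difference (0.22, adjusted p = 0.395).

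A few genes of muscle differentiation differed by large amounts that did not pass the test, while the median of the 12 tested genes of commitment was -0.13. Myog, the factor that drives differentiation, measured 6.65, 7.03, 8.13 and 6.93 in controls and 5.19, 5.71, 4.36 and 6.37 in high-fat mice. Acta1, the actin of muscle fibres, measured 7.95, 7.49, 7.87 and 8.35 in controls and 6.31, 6.42, 6.24 and 6.21 in high-fat mice. Neither gene overlapped between diets, yet neither passed, with -1.78 ± 0.51 (adjusted p = 0.0822) for Myog and -1.62 ± 0.46 (adjusted p = 0.0808) for Acta1. In the fit to the 8 arrays alone Acta1 passed, with an SE of 0.17 (adjusted p = 0.0114). Mymk, the membrane protein of fusion, differed by -1.30 ± 0.41 (adjusted p = 0.117). None of 12 genes of commitment and none of 14 of the mature fibre passed in limma (5 and 3 at an unadjusted p under 0.05, beside 1399 of all 10258 genes). The mean of the fibre list lay at 6.87 to 7.17 in controls and 6.58 to 6.81 in high-fat mice, with no overlap. Its largest differences were those of Actc1 (-1.82, adjusted p = 0.317) and Acta1. The median of the fibre list was -0.09, and 4 of its 14 differences were positive.

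Among 28 genes of satellite cell identity and quiescence 1 fell, Cdkn1c, an inhibitor of the cell cycle. It measured 8.81, 9.20, 9.81 and 9.12 in controls and 7.81, 8.07, 6.86 and 8.32 in high-fat mice and differed by -1.47 ± 0.35 (adjusted p = 0.0328). The groups did not overlap, but the call was lost without control replicate 2 or 3 or high-fat replicate 1 or 3 (adjusted p = 0.0546 to 0.147). Pax3, the paralog of Pax7, measured 7.42, 7.78, 7.44 and 7.33 in controls and 8.14, 7.68, 7.87 and 8.15 in high-fat mice, with 1 high-fat mouse inside the range of the controls. This was a difference of 0.47 ± 0.13 that did not pass with all mice (adjusted p = 0.0606) and did without control replicate 2 (adjusted p = 0.038). The Notch target Heyl (0.29 ± 0.08, adjusted p = 0.0764) and the growth factor receptor Fgfr4 (0.17 ± 0.05, adjusted p = 0.0665) did not pass.

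Several heat shock chaperones were slightly higher on the high-fat diet. Of 16 tested genes 5 rose and none fell, beside 0.302% higher and 0.517% lower over all genes. The median difference was 0.13, beside -0.02 over all genes tested. The 5 are heat-inducible, and the promoters of Hspb1, Hspa1b and Dnaja1 are shown because they hold paired copies of the unit that heat shock factor binds. The stretches are the 150 bases before a gene start, 5′ to 3′ on the gene's strand, from RefSeq (GRCm38.p6). Capitals mark GAANNTTC or TTCNNGAA, each of which reads the same on both strands.
Hspb1, chr5:135887769-135887918, plus strand: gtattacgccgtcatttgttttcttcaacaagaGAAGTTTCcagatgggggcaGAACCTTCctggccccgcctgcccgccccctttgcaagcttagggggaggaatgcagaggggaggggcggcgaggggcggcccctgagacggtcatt
Hspa1b, chr17:34959239-34959388, minus strand: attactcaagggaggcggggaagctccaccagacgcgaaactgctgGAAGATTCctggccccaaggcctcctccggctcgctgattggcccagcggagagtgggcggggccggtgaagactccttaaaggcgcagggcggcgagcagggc
Dnaja1, chr4:40722318-40722467, plus strand: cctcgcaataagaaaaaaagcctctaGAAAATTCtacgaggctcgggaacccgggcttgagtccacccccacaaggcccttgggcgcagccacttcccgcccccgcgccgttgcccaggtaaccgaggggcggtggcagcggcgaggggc
Hspb1 holds a pair of these motifs, starting 117 and 97 bases before the gene start, Hspa1b holds 1 at 104 bases, and Dnaja1 holds 1 at 124 bases before the start shown, while the windows at its other listed starts hold none. RefSeq promoter windows of 300 bases, from 250 before a start to 50 after it, were searched. Of the 5 rising members 4 had an entry, with 7 windows in all because some genes have several starts. A motif was in 3 of these 7 windows, and in 4946 of all 32851 windows (15.1%). The windows of Dnajb1 hold neither of these letter strings.

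Dnajb1, the co-chaperone that hands substrates to Hsp70, measured 10.20, 10.25, 10.19 and 10.48 in controls and 10.60, 10.67, 10.68 and 10.60 in high-fat mice. All high-fat mice were higher, by 0.36 ± 0.07 (adjusted p = 0.00285), a 1.28-fold increase. Hspb1, a small chaperone that holds unfolded proteins and binds actin, measured 11.34, 11.30, 11.28 and 11.50 in controls and 11.72, 11.72, 11.70 and 11.61 in high-fat mice. Its increase of 0.33 ± 0.06 (adjusted p = 0.00378) was also without overlap.

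Hspa1b, an inducible Hsp70, measured 11.87, 11.73, 11.76 and 11.78 in controls and 11.96, 11.99, 11.94 and 11.99 in high-fat mice. It rose by 0.19 ± 0.04 (adjusted p = 0.0107), and its probe signal may be shared with the near-identical gene Hspa1a. Hsp90aa1, the inducible Hsp90, measured 10.95, 10.68, 10.84 and 10.97 in controls and 11.06, 11.10, 11.17 and 11.20 in high-fat mice and rose by 0.27 ± 0.06 (adjusted p = 0.0107). Dnaja1, a co-chaperone of Hsp70, rose by 0.22 ± 0.06 (adjusted p = 0.0428). In all 5 genes every high-fat mouse was above every control, which held for 2.29% of all genes. The 5 were called on these same mice, and 75 of the 84 called genes were without overlap, so this is no separate evidence. The largest of the 5 increases was 1.28-fold. Without control replicate 2 only Dnajb1 (adjusted p = 0.0137) and Hspb1 (adjusted p = 0.0272) of the list passed, with 0.0606 for Hspa1b, 0.0945 for Hsp90aa1 and 0.116 for Dnaja1, and without high-fat replicate 3 there were 3. The constitutive Hspa8 (-0.01, adjusted p = 0.955) and the co-chaperone Bag3 (-0.10, adjusted p = 0.679) did not pass.

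The 15 largest increases, from 0.57 to 1.17, were a mixed group that held none of these 5 chaperones. Gjb2, which forms gap junction channels, measured 6.43, 5.81, 5.97 and 6.47 in controls and 7.52, 7.09, 7.31 and 7.45 in high-fat mice. Its increase of 1.17 ± 0.22 (adjusted p = 0.00285), 2.25-fold and without overlap, was the largest, and the gene was also higher at ZT12, by 1.16 ± 0.22 (adjusted p = 0.0064). Nppc, which encodes C-type natriuretic peptide, a secreted peptide that signals through cyclic GMP, measured 10.42, 10.05, 10.33 and 10.09 in controls and 11.03, 11.18, 11.37 and 10.91 in high-fat mice. It rose by 0.90 ± 0.19 (adjusted p = 0.0107) but not past the threshold without control replicate 2 (adjusted p = 0.0533) or high-fat replicate 3 (adjusted p = 0.06).

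Ilkap, a phosphatase that acts on integrin-linked kinase signalling, rose by 0.94 ± 0.18 (adjusted p = 0.00414), from 8.18 to 8.96 in controls to 9.56 to 9.70 in high-fat mice, while its other probe set gave 0.23. Col17a1, a transmembrane collagen that anchors cells to the basement membrane, rose by 0.97 ± 0.23 (adjusted p = 0.0299). It measured 6.07 in control replicate 2 and 7.01 to 7.30 in the other controls, against 7.73 to 8.11 in high-fat mice, and without that control its difference was 0.69 (adjusted p = 0.137). Without high-fat replicate 3 or 4 its adjusted p was 0.1 or 0.0529. H2-Q4, a class I histocompatibility gene whose near-identical relatives may share the probes, rose by 0.58 ± 0.10 (adjusted p = 0.00283), with 10.10 to 10.38 in controls and 10.66 to 11.04 in high-fat mice.

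Further increases were those of Dguok, the mitochondrial deoxyguanosine kinase (0.62 ± 0.14, adjusted p = 0.0238), Trak2, an adaptor of mitochondrial transport (0.68 ± 0.14, adjusted p = 0.0107), and 2 J-domain proteins, Dnaja4 (0.60 ± 0.15, adjusted p = 0.0408) and Sec63 of the endoplasmic reticulum (0.60 ± 0.13, adjusted p = 0.0107). Some rest on 1 probe set, since others of the same gene gave -0.18 for Trak2, 0.03 to 0.17 for Sec63, -0.10 and 0.00 for Fam204a (1.13 ± 0.24) and -0.08 and 0.02 for Tmem116 (0.63 ± 0.16). Nol11, a factor of ribosomal RNA synthesis, rose by 0.67 ± 0.14 and its other probe sets gave 0.13 to 0.26. The call was lost for Dguok without control replicate 1 or 3 or high-fat replicate 3 (adjusted p = 0.1 to 0.132), for Trak2 without control replicate 1 (0.0686), for Sec63 without control replicate 3 (0.0641) and for Nol11 without control replicate 2 (0.0691). Dnaja4 passed without high-fat replicate 3, and without any other mouse its adjusted p was 0.0505 to 0.129. Fam204a did not pass without control replicate 2 or 4 or high-fat replicate 1 (adjusted p = 0.0527 to 0.0945). The remaining increases among the 15 were Tmem255a (1.02 ± 0.26), Ppm1n (0.61 ± 0.13) and Arsk (0.57 ± 0.14), and each of these and Tmem116 lost its call without at least 4 of the 8 mice in turn.

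Decreases among the 15 largest that belong to no group above were those of Dusp4, a phosphatase of MAP kinases (-0.92 ± 0.20, adjusted p = 0.0107), Tent5b (-0.93 ± 0.19, adjusted p = 0.00776), 2010320M18Rik (-0.97 ± 0.23, adjusted p = 0.0328) and Arhgdib (-1.04 ± 0.25, adjusted p = 0.0299). Arhgdib measured 8.33 in control replicate 2, 7.26 to 7.40 in the other controls and 5.93 to 7.29 in high-fat mice. The diets overlapped for this gene. The call of Tent5b was lost without high-fat replicate 4 (adjusted p = 0.0533), of Dusp4 without control replicate 2 (0.0948) or high-fat replicate 1 (0.0533), and of 2010320M18Rik without control replicate 2 or 3 or high-fat replicate 1 or 2 (0.0669 to 0.144). Without high-fat replicate 2, 3 or 4 the adjusted p of Arhgdib was 0.0573 to 0.137, and without control replicate 2 its difference was -0.79 (adjusted p = 0.129). The part of the endothelial and immune transcripts of that mouse in this value was not tested.

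**Figure D4:**
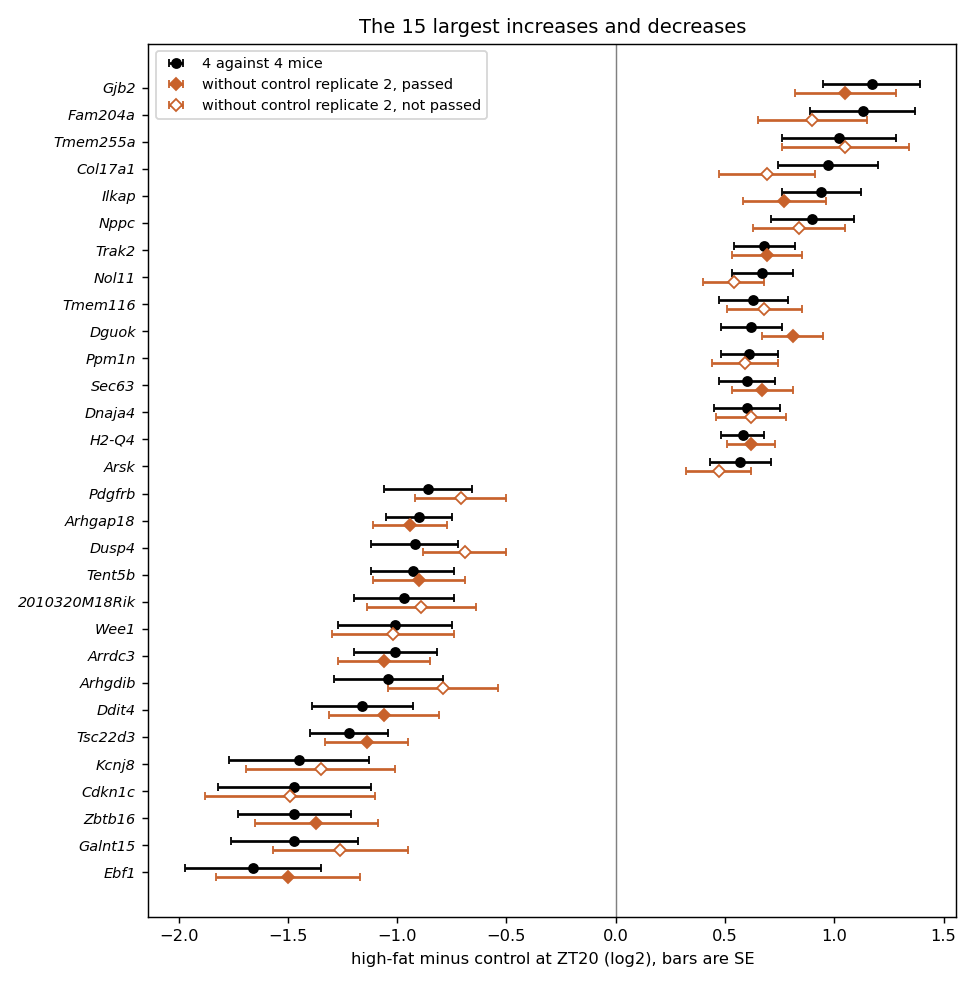
High-fat minus control difference in log2 expression at ZT20 (horizontal axis) with SE bars for the 15 largest increases and the 15 largest decreases among the genes past the threshold (vertical axis), for all mice in black and without control replicate 2 in orange, filled where the adjusted p stayed under 0.05. No gene changed direction, and 13 of the 30 stayed past the threshold.

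A few mitochondrial genes were lower. Of 77 genes of oxidative phosphorylation 3 fell and none rose, beside 0.517% lower and 0.302% higher over all genes. A negative difference was found for 62, and the median was -0.09. Negative differences also made up 5578 of all 10258 genes and 61 of 68 cytosolic ribosomal protein genes, none of which passed in limma (8 at an unadjusted p under 0.05). Ndufa9, a subunit of complex I, measured 8.75, 8.55, 8.57 and 8.93 in controls and 8.22, 8.02, 7.68 and 8.10 in high-fat mice. The groups did not overlap, and the difference was -0.70 ± 0.12 (adjusted p = 0.0016), which passed without any 1 of the mice. Ndufs7 of complex I (-0.42 ± 0.10, adjusted p = 0.0407) and Atp5b, the catalytic subunit of ATP synthase (-0.29 ± 0.08, adjusted p = 0.0482), passed by little, and each lost its call without 6 of the 8 mice in turn. The other probe set of Ndufs7 gave -0.11. Without control replicate 1 or 3 or high-fat replicate 3, 1 gene of the list passed. Aldoa, an enzyme of glycolysis, fell by 0.22 ± 0.05 (adjusted p = 0.0428), 1 of 17 genes of that list, and kept its call only when high-fat replicate 4 was the mouse left out. No gene of fatty acid oxidation (29 tested, median -0.02), fatty acid synthesis (17, median 0.05) or cholesterol synthesis (16, median 0.03) passed in limma, and 6, 2 and 2 had an unadjusted p under 0.05. Acadm, which starts the oxidation of medium-chain fatty acids, was nearest (-0.52 ± 0.15, adjusted p = 0.0798).

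The core clock differed in 1 of 20 genes, Per1. Arntl (-0.06 ± 0.33, adjusted p = 0.966), which drives the loop, Per2 (0.07 ± 0.16, adjusted p = 0.912), a repressor in it, Nr1d2 (-0.01 ± 0.13, adjusted p = 0.987) and the output gene Dbp (-0.19 ± 0.19, adjusted p = 0.718) did not pass. The SE of 0.33 for Arntl leaves room for a sizeable difference, since its controls alone ranged from 7.94 to 9.20. Csnk1e, a kinase of the PER proteins, was the nearest to the threshold after Per1 (-0.30 ± 0.08, adjusted p = 0.0633), and its other probe sets gave -0.00 and 0.05.

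Targets of NF-kB, the inflammatory transcription factor, had a median difference of 0.17, with 13 of 15 positive and 1 past the test. Over all 10258 genes the median was -0.02, 4680 differences were positive and 0.302% were higher past the test. Cx3cl1, a membrane-bound chemokine, measured 7.39, 7.62, 7.48 and 7.72 in controls and 8.06, 7.95, 8.21 and 7.92 in high-fat mice, and rose without overlap by 0.48 ± 0.12 (adjusted p = 0.0327) on the probe set used. Its other probe set gave 0.09. The call was lost without control replicate 1, 2 or 3 or high-fat replicate 1 or 3 (adjusted p = 0.0606 to 0.119). Icam1, an adhesion molecule that endothelium also carries, measured 8.53 in control replicate 2 and 7.64 to 7.70 in the other controls, against 8.19 to 8.62 in high-fat mice. Its difference of 0.52 ± 0.18 did not pass with all mice (adjusted p = 0.152) and passed without that control (adjusted p = 0.038). Tnfaip3, the feedback inhibitor of the pathway, did not pass at ZT20 (-0.01 ± 0.13, adjusted p = 0.979) and was higher on the high-fat diet at ZT16 by 1.51 ± 0.14 (adjusted p = 6.61e-10). The ZT20 difference of Tnfaip3 against the other times was -0.69 ± 0.14 (adjusted p = 0.00725), and -0.48 without ZT16 (adjusted p = 0.135).

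**Figure D5:**
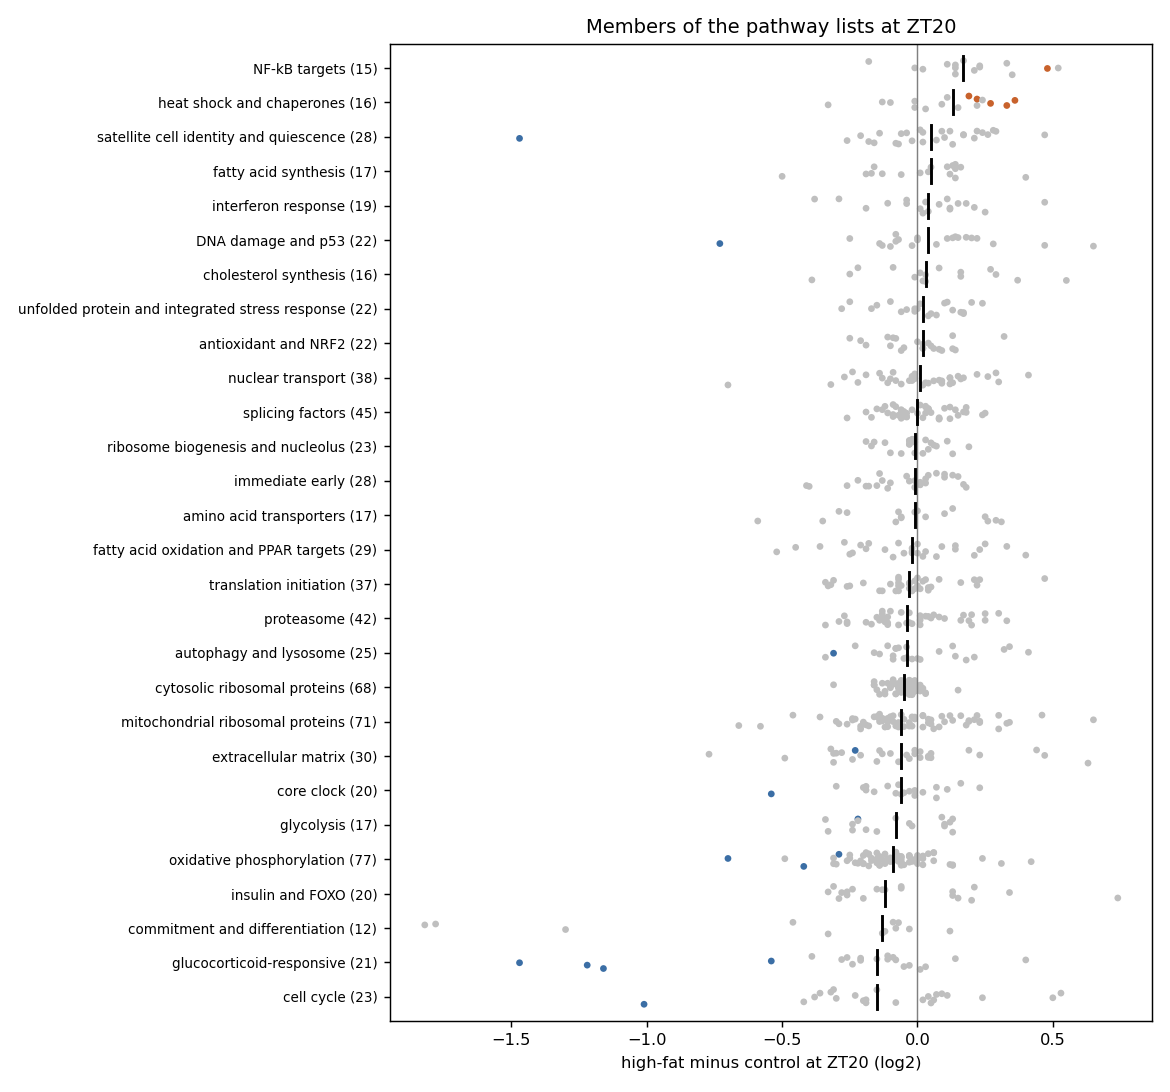
High-fat minus control difference in log2 expression at ZT20 (horizontal axis) of the members of 28 pathway lists (vertical axis, number of tested genes in brackets), ordered by the median, which is the black bar; orange and blue points are genes higher and lower at an adjusted p under 0.05, and grey points did not pass. The glucocorticoid-responsive list has 4 blue points with a median of -0.15 and the heat shock list 5 orange points with a median of 0.13.

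Single members passed in further lists, all lower on the high-fat diet. They were Ulk1, the kinase that starts autophagy (-0.31 ± 0.08, adjusted p = 0.0482, 1 of 25), Sparc, a matrix protein (-0.23 ± 0.06, adjusted p = 0.0429, 1 of 30), and Gsn, an actin-severing protein and marker of fibro-adipogenic cells (-0.24 ± 0.06, adjusted p = 0.0238, 1 of 11). None of these 3 passed without control replicate 2 (adjusted p = 0.0764, 0.129 and 0.104), control replicate 1 (0.133, 0.0519 and 0.0636), high-fat replicate 3 (0.164, 0.146 and 0.0805) or high-fat replicate 4 (0.0521, 0.0953 and 0.058). Control replicate 2 had the highest fibro-adipogenic and matrix means at ZT20, inside the ranges of the other times, and their part in the values of Gsn and Sparc was not tested. The lists of cytosolic ribosomal proteins (68 genes, median -0.05), mitochondrial ribosomal proteins (71, -0.06), the proteasome (42, -0.04), splicing factors (45, 0.00) and the unfolded protein response (22, 0.02) held no gene past the threshold in limma, and 8, 9, 4, 2 and 3 at an unadjusted p under 0.05. The same was so for genes of the interferon response (19, median 0.04, 2 at an unadjusted p under 0.05), in which H2-K1 was nearest (0.18 ± 0.05, adjusted p = 0.0798), and for immediate early genes (28, median -0.01, 10 unadjusted), in which Klf4 was nearest (0.17 ± 0.05, adjusted p = 0.105).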

How the data were processed

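RNA of 47 mice (12 groups of diet and time, 4 mice each, 3 at high-fat ZT16) was measured on arrays. Per the labels' protocols, 25 ng of RNA was amplified over 17 cycles. The authors deposited log2 values of probe sets. RMA, named in the submitters' processing notes without a version, brings all arrays to a like distribution, so a difference is read against the mass of genes. The values have no read depth, and the number of arrays limits precision. Of 45141 probe sets, 28898 carry 1 gene symbol, 551 several and 15692 none. Each of 17097 genes was represented by its brightest probe set (mean of the 47 arrays), and genes with a mean under the 40th percentile were left out, leaving 10258.

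All 47 arrays were fitted with 12 group means (R 4.3.3, limma 3.58.1, eBayes with trend), tests were two-sided and p-values Benjamini-Hochberg adjusted over the 10258 genes. The contrasts were the diet difference at ZT20, and that difference against the mean of the other 5 times. The fit was tested on simulated data. Genes named are the 15 largest increases and decreases past the threshold of 0.05 and the 10 smallest p against the other times. The 4 smallest p of each of 37 lists and all endothelial and clock genes are named too. Dusp1, Fkbp5, Sgk1, Klf9, Angptl4, Hspa8, Bag3, Acta2, Myh11, Mcam, Cnn1, Notch3, Tnfaip3 and Dnaja1 were added after their values were seen. The comparison and the lists were chosen with earlier results of these data known. Alternatives changed the filter, probe sets, variance model, scaling, array weights, replicate block and mice.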

Additional observations from a re-analysis of the deposited data

Results flagged for a closer look

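A mouse stood far from the other 3 of its group in 10 of 148 groups of 4 looked at (list means and named genes); chance gives about 1 in 20. Control replicate 2 was the high one for the endothelial mean (9.26), the immune mean (8.00), the interferon response mean (8.37) and Arhgdib (8.33). Control replicate 4 was far from the rest for the means of glycolysis (9.36) and of insulin and FOXO genes (8.82), control replicate 1 for Dnaja4 (7.48) and control replicate 3 for Rybp (9.75). High-fat replicate 4 was low for Ebf1 (4.91) and high for Rybp (10.39).

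The diet difference at ZT20 differed from the mean of the other 5 times, by a limma contrast, for 23 of the leading genes. The excess at ZT20 was positive for Gjb2 (1.07), Fam204a (1.35), Nol11 (0.75), Tmem116 (0.69), Sec63 (0.61) and Rybp (0.49). It was negative for Ebf1 (-1.78), Zbtb16 (-1.90), Galnt15 (-1.53), Kcnj8 (-1.41), Tsc22d3 (-1.33), Ddit4 (-1.07), Arrdc3 (-1.02), Wee1 (-1.33), 2010320M18Rik (-1.31), Tent5b (-0.90) and Arhgap18 (-0.94). The others with a negative excess were Slc10a6 (-1.33), Trp53inp1 (-1.13), Sash1 (-0.56), Foxo3 (-0.49), Rere (-0.64) and Sgcb (-0.84). Without ZT16 among the other times, 10 of the 23 did not pass: Gjb2 (adjusted p = 0.0505), Tmem116 (0.0543), Sec63 (0.0522), Galnt15 (0.0899), Kcnj8 (0.0522), Ddit4 (0.212), Arrdc3 (0.097), Wee1 (0.0687), 2010320M18Rik (0.0522) and Tent5b (0.0705).

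Probe sets without a single gene symbol were outside the comparisons. Of 7299 of them above the same level, 46 were higher in high-fat mice and 55 lower (1.38% in all) when tested in the same way.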

How the results depend on the processing

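Among 190 genes named by the rule, none of those past the threshold with all mice changed sign under any alternative, and 15 of those not past it, such as Arntl and Per2, did in at least 1. Leaving out each ZT20 mouse in turn moved the genes higher from 31 to between 17 and 41 and the genes lower from 53 to between 24 and 56; against the other times the 39 higher became 7 to 62 and the 64 lower 29 to 85. In the lists, the counts ran from 1 to 4 for pericytes (3 with all mice), 1 to 2 for oxidative phosphorylation (3), 2 to 5 for heat shock (5) and 3 to 7 for glucocorticoid-responsive genes (4). The low end against the other times came without control replicate 3 (higher) and control replicate 2 (lower), and the high ends without control replicate 4. With no filter 1 gene of oxidative phosphorylation passed, and with no intensity trend 3 heat shock genes; the cause was not tested. Leaving ZT16 out of the other times gave 13 higher and 24 lower. With the 8 ZT20 arrays alone 2 genes were higher and 2 lower (1183 at an unadjusted p under 0.05, 1399 in the fit to 47 arrays), and the lists held 0, 0, 0 and 1 called genes in the order above; such a fit has fewer arrays from which to estimate the spread. An alternative chosen after seeing the data, the 8 ZT20 arrays without control replicate 2, gave 0 higher and 2 lower (1120 unadjusted), and 0, 0, 0 and 1 in the lists.

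Mice with the same replicate number did not deviate together over all genes tested (correlations of -0.109 to 0.0392, and 0 of 4 correlated best with its own number). Such a correlation can miss a pairing that affects only some genes, so it cannot exclude that the numbers pair mice. With the replicate block, 18 genes were higher and 40 lower, 22 and 41 against the other times, and 1 gene of oxidative phosphorylation passed. The block with the 8 arrays alone called 0 genes in limma, in every list too (1130 unadjusted).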
